A study of Mus musculus with 2 samples.

Results

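Type 2 vomeronasal receptor genes were taken as the autosomal protein-coding genes of the RefSeq table for mm10 whose symbol begins with Vmn2r. The rule gave 123 of 20665 autosomal protein-coding genes. Of these, 122 could be placed on 8 chromosomes. The table position of Vmn2r122 lies in the first 3 Mb of chromosome 4, where no peak was called and where unlocalised scaffolds share the numbering, so that gene was left out. Vmn2r-ps130 carries a pseudogene symbol but is annotated as protein-coding, and it was kept. The study concerns the histone variant H3.2 in the eye. Frozen E10.5 mouse heads were profiled by chromatin immunoprecipitation and sequencing (ChIP-seq), in which an antibody recognising GFP, a fluorescent protein tag, pulled down DNA. There were 2 libraries, which carry the same labels and form 1 group. The labels name no control, no genotype, no strain and no protein carrying GFP, and they do not say whether the libraries came from separate embryos. The libraries are called library 1 and library 2, and each had its own list of peaks, of 584724 and 348.

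Type 2 vomeronasal receptors are G protein-coupled receptors with a large extracellular domain that binds peptides and proteins. They are made by sensory neurons in the basal layer of the vomeronasal organ, where they signal through the G protein subunit encoded by Gnao1 and the channel encoded by Trpc2. A basal neuron typically makes 1 or few receptors of the large families together with a broadly used receptor of family C, the members Vmn2r1 to Vmn2r7. The genes lie in tandem arrays among many pseudogene copies, and the organ forms later in development than the stage sampled here. Peaks do not measure expression.

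A gene was counted as having a peak when a summit, the position of highest enrichment within a peak, lay in its body or within 1 kb of either end. Library 1 peaks were found in 80 of 122 receptor genes (65.6%, 95% Clopper-Pearson interval 56.4 to 73.9). Among all 20560 placed autosomal protein-coding genes the share was 90.4%. It was 97.7% among the 12565 genes within the length range of the receptor genes, 8.40 to 143 kb. The receptor genes had a median of 1 peak and a highest value of 15, against a median of 8 in the other protein-coding genes. Of the receptor genes, 42 had none, 35 had 1 and 45 had 2 or more. With peaks of −log10 q of at least 5, 58 receptor genes had one, against 79.3% of all genes. With the 10% of peaks of highest fold enrichment, 32 receptor genes had one, against 52.9% of all genes. With 1 group, no test between samples was possible. Intervals throughout are at the 95% level and cover counting error only. They treat summits and genes as independent, although summits can bunch or recur at like places in close copies.

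Library 2 had no peak in or within 1 kb of any of the 122 receptor genes. This allows a share of up to 2.98% (upper Clopper-Pearson limit, where 3 counts of 122 would be 2.46%). Its share among all placed autosomal protein-coding genes was 0.151%, so a count of 0 in 122 genes lies near the background. A window of 100 kb also held none. The nearest library 2 peak lay 161 kb from Vmn2r61, at chromosome 7, 42462133 to 42462183, with a fold enrichment of 8.31.

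**Figure D1:**
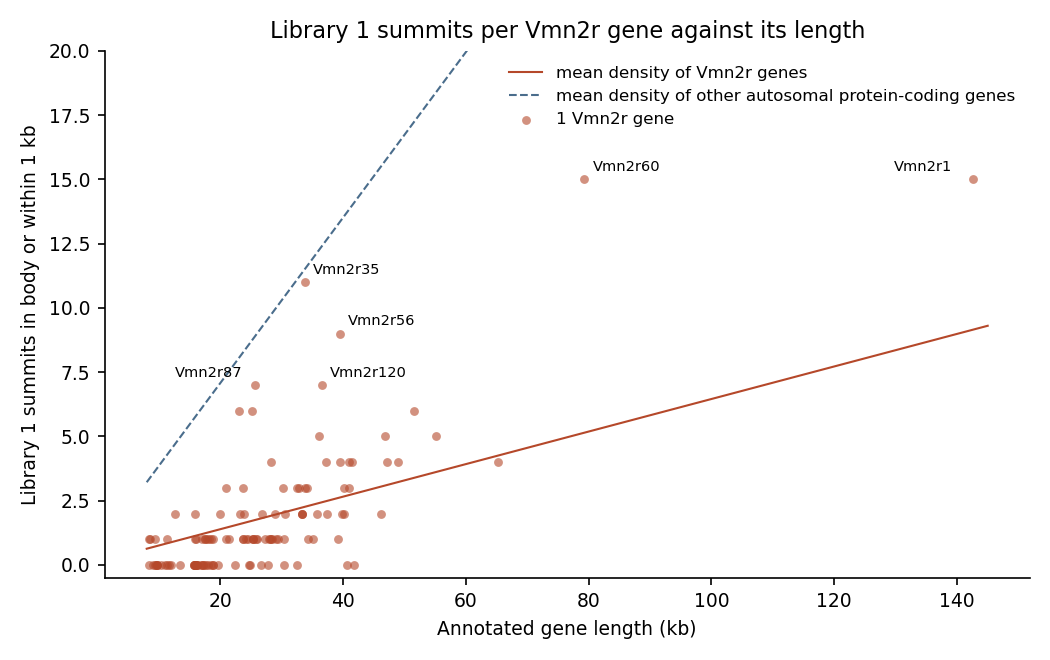
Each point is 1 placed receptor gene, with its annotated length in kb on the x axis and its number of library 1 summits, in the body or within 1 kb, on the y axis. The lines show the mean density of the receptor genes (63.3 summits per Mb) and of other autosomal protein-coding genes (322 per Mb); the highest density of a single receptor gene, 308 per Mb, stays under the upper line.

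Per length, the receptor genes held 218 library 1 summits over 3.44 Mb, or 63.3 per Mb (exact Poisson interval 55.2 to 72.3). Other autosomal protein-coding genes held 322 per Mb (321 to 323), and the ratio was 0.197 (exact interval 0.171 to 0.225). Autosomal sequence outside annotated genes held 169 per Mb (168 to 169), and the ratio of the receptor genes to it was 0.375 (0.327 to 0.428). The whole autosomes held 240.0 per Mb. Of the 218 summits, 214 lay in a receptor gene body and 4 in a 1 kb flank: 2 beside Vmn2r46, 1 beside Vmn2r69 and 1 beside Vmn2r79. Of the same summits, 13 also lay in another annotated gene that overlaps the receptor gene, such as Vmn2r-ps11 in Vmn2r7.

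Peak numbers followed gene length. Of 18 receptor genes under 15 kb, 5 had a peak (27.8%, 9.69 to 53.5). The share was 60.9% (47.9 to 72.9) for the 64 genes of 15 to 30 kb and 90% (76.3 to 97.2) for the 40 genes of 30 kb or more. Density also differed: 27.1 summits per Mb (9.96 to 59.1) in the shortest class, 45.3 (35.2 to 57.4) in the middle one and 83.6 (70.5 to 98.4) in the longest. Genes with a peak had a median length of 28.3 kb, and those without had 16.2 kb. The longest receptor genes with no peak were Vmn2r94 (41.7 kb) and Vmn2r61 (40.7 kb), singled out after their values were seen.

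Peaks in receptor genes had medians of height and width close to those of other library 1 peaks, with a larger share of high ones than over all autosomes. Their median fold was 4.04, that of peaks between genes in the same clusters was 4.04 and that of all autosomal peaks was 3.90. Median widths were 214, 201 and 201 bp in the same order. The median pileup, meaning how many extended reads cover the summit, was 15 in each of these 3 sets. Of the receptor gene peaks, 17.4% were among the 10% of highest fold, against 15.3% of peaks between genes in the clusters and 10.8% of all autosomal peaks. A −log10 q of at least 5 was reached by 49.5% of receptor gene peaks, 44.8% of cluster intergenic peaks and 41.1% of all autosomal peaks. These shares were not tested. In 74.3% of the receptor gene peaks the background was the genome-wide value of 2.71 extended reads, against 78.9% of cluster intergenic peaks and 66.0% of all autosomal peaks.

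Receptor genes at most 1 Mb from the next formed 11 clusters of at least 3 genes, which held 115 members; 7 placed members lay outside them. In these clusters the receptor genes held 62.2 summits per Mb (205 summits, 54.0 to 71.3). Intergenic sequence of the same clusters, outside every annotated gene and 1 kb around it, held 92.2 per Mb (692 summits, 85.4 to 99.3). The ratio was 0.675, and its interval (0.574 to 0.789), which covers counting error only, lay below 1. The ratio ranged from 0.633 to 0.725 when each cluster was left out in turn. Annotated Vmn2r pseudogenes in the clusters held 50.2 per Mb (37.6 to 65.6), and their interval overlaps that of the receptor genes. Other protein-coding genes in the clusters held 90.6 per Mb (66.3 to 121), close to the intergenic value. The intergenic sequence of the clusters was itself 0.547 (0.506 to 0.589) as dense as autosomal intergenic sequence.

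The direction was not the same in every cluster. The ratio of receptor genes to intergenic sequence was below 1 in 9 clusters and above 1 in 2. The interval lay below 1 in 4 clusters, and in no cluster did it lie above 1. Those 4 were Vmn2r65 to Vmn2r79 on chromosome 7 (0.435, 0.225 to 0.771), Vmn2r80 to Vmn2r83 on chromosome 10 (0.433, 0.195 to 0.897), and both clusters of chromosome 17. Vmn2r90 to Vmn2r110 had a ratio of 0.411 (0.250 to 0.648), and Vmn2r111 to Vmn2r117 had 0.267 (0.0837 to 0.658). Above 1 were the family C cluster on chromosome 3 (1.77, 0.822 to 4.04) and Vmn2r53 to Vmn2r56 on chromosome 7 (2.14, 0.520 to 18.9). Both intervals include 1, and the intergenic sequence of the second cluster is only 0.0271 Mb with 2 summits.

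**Figure D2:**
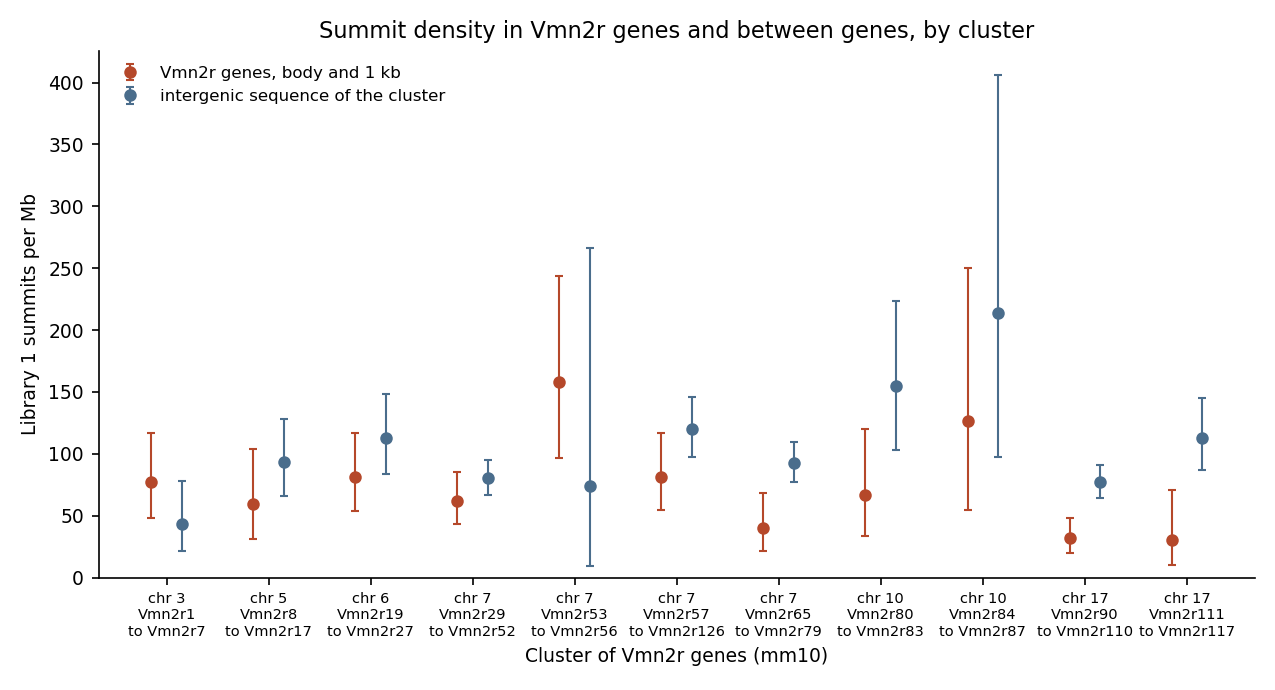
Library 1 summits per Mb (y axis) in receptor genes with 1 kb flanks (left point of each pair) and in intergenic sequence of the same cluster (right point), for 11 clusters in genome order (x axis). Bars are exact Poisson 95% intervals; the left point is lower in 9 clusters, and the bars are apart at Vmn2r65 to Vmn2r79 and at both chromosome 17 clusters.

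Family C receptors, which are made together with receptors of the other families, lie at chromosome 3, 64078172 to 64719602. All 7 had a library 1 peak, with 22 distinct summits and 77.0 per Mb (48.3 to 117), against 62.0 per Mb (53.7 to 71.4) in the other receptor genes. The intervals overlap. Intergenic sequence of this cluster held 43.5 per Mb (21.7 to 77.9). Vmn2r1 had 15 summits over 143 kb (104 per Mb, 58.0 to 171). Its strongest peak, at 64084968 to 64085400, reached a fold of 5.58 on 28 reads at the summit (18.6 to 40.5). Vmn2r2 lies inside the annotated body of Vmn2r1 and had 5 summits, each of which was counted for both genes. Vmn2r4 and Vmn2r7 had 2 summits each, and Vmn2r3, Vmn2r5 and Vmn2r6 had 1 each. Best folds were 6.73 at Vmn2r7, 5.74 at Vmn2r5, 5.39 at Vmn2r6, 5.12 at Vmn2r4, 4.58 at Vmn2r3 and 4.04 at Vmn2r2. Both Vmn2r7 summits also lie in the pseudogene Vmn2r-ps11.

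The cluster of chromosome 5 (108797193 to 109453387) had a peak in 4 of 10 genes, and the other 6 genes had none. Vmn2r17 had the highest fold, 7.27, on a pileup of 26 reads (17.0 to 38.1). Vmn2r11 had most peaks per length, with 2 summits (137 per Mb, 16.6 to 496). On chromosome 6 (123308333 to 124231784) all 9 genes had a peak, from 1 to 4 summits each. Vmn2r27 led in fold with 7.002 and a pileup of 25 (16.2 to 36.9), and Vmn2r19 led in density with 4 summits (132 per Mb, 36.1 to 339). The genes of chromosome 6 were longer, with a median of 37.3 kb against 11.8 kb on chromosome 5.

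Chromosome 7 carried 4 clusters. Between 7212996 and 10176286, 16 of 24 genes had a peak. Each gene there with a single summit and a given strand had it at 84.0 to 90.5% of the body from the start. In this cluster the promoter windows had a median identity of 99% to the nearest other member. Whether such summits at like places in close copies are separate events was not tested. Vmn2r35 alone had 11 summits in 33.7 kb, or 308 per Mb (154 to 551), the highest density of any receptor gene and close to the 322 per Mb of other protein-coding genes. Its folds ran from 2.52 to 5.66, and 6 of its summits lay between 22.3 and 25.5 kb after the start. Vmn2r38, with the same highest fold of 5.66, had 6 summits (240 per Mb, 88.2 to 523). In the cluster at 41399732 to 43048106, 7 of 8 genes had a peak. Vmn2r60 had 15 summits in 79.3 kb (184 per Mb, 103 to 304), and Vmn2r58 had the highest fold, 6.46, in a peak 869 bp wide. Between 84940169 and 87037968 only 6 of 15 genes had a peak. Vmn2r75 led there in density with 3 summits (117 per Mb, 24.1 to 341) and Vmn2r79 in fold with 6.20, at a summit just past its far end.

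The cluster at chromosome 10, 79148816 to 79492154, had a peak in all 4 genes. Vmn2r80 held the highest fold of all receptor genes, 7.54, in a peak at 79173282 to 79173630 with a pileup of 27 reads (17.8 to 39.3). Vmn2r81 had 5 summits (103 per Mb, 33.3 to 239). Further along the chromosome, at 130385800 to 130497379, 2 of 4 genes had a peak, and Vmn2r87 held 7 of the 8 summits. Those of Vmn2r87 had folds of 1.95 to 4.58 (254 per Mb, 102 to 523).

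On chromosome 17, 12 of 22 genes had a peak between 17703941 and 20596259. Vmn2r91 had 6 summits (112 per Mb, 41.1 to 244), and Vmn2r100 had a single one with the cluster's highest fold, 5.92. This cluster also had the longest stretch without any library 1 summit, 126 kb from 20144354 to 20269856, which holds all of Vmn2r105. Between 22547941 and 23479597, 4 of 8 genes had a peak, none with more than 2 summits. Vmn2r111 had the highest fold, 6.46, from 1 summit, and Vmn2r117 had 2 (91.2 per Mb, 11.05 to 330).

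Of the 7 placed members outside clusters, 5 had a peak. Vmn2r120 on chromosome 17 had 7 summits (182 per Mb, 73.0 to 374) and the highest fold among them, 6.19. The density of these 7 genes was 87.9 per Mb (46.8 to 150), and its interval overlaps that of the clustered genes.

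The 5 receptors below have a reported ligand and are given for that reason, picked by hand after their values were seen. Other receptors with reported ligands were not sought. Vmn2r116, the receptor for the tear peptide ESP1, had 1 peak, at chromosome 17, 23389434 to 23389594, with a fold of 5.28. Vmn2r115, the receptor for the juvenile peptide ESP22, had none. Vmn2r26, which responds to peptides presented by MHC molecules, had 4 peaks with a best fold of 4.58. Vmn2r65, a receptor for a salivary gland protein, had 2 peaks with a best fold of 6.19. Vmn2r88, a receptor for hemoglobin, had 1 with a fold of 2.96, at a summit that also lies in Gm7247.

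The starts of the receptor genes were close to free of peaks. RefSeq promoter windows, from 250 bases before to 50 after the start, were found for 116 placed members. No library 1 summit fell in any of them, which allows a share of up to 3.13% (upper Clopper-Pearson limit, where 3 counts of 116 would be 2.59%). Among the windows of all 16457 autosomal protein-coding genes in the table, 22.3% held a summit. A library 1 peak shared at least 1 base with none of the 116 windows, against 42.1% of all windows. The receptor windows also had a different base composition: a median GC content of 38.0% against 56.7%, and a median of 1 CG dinucleotide against 14. At most 2 CG were found in 95 of 116 receptor windows (81.9%) and in 18.6% of all windows. The window of Vmn2r29 was the exception with 23 CG, and no other receptor window had more than 4. The part of base composition in the difference was not tested.

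In the 1 kb before the start the receptor genes had 1 summit, 952 bp before that of Vmn2r69 (8.62 per Mb, 0.218 to 48.0), and in the first kb after it 3 (25.9 per Mb, 5.33 to 75.6). Other genes of the same length range had 420 per Mb (408 to 433) before the start and 704 (688 to 721) after it, their highest value in the zones measured. The receptor genes had 28.0 per Mb (14.9 to 47.9) from 1 to 5 kb inside. The density was 52.5 (35.4 to 74.9) from 5 to 10 kb and 75.8 (59.0 to 95.9) from 10 to 20 kb. From 1 to 5 kb before the start, the density was 90.5 per Mb (65.2 to 122), close to the 92.2 per Mb of cluster intergenic sequence. For some members, such as Vmn2r2 and Vmn2r4, the start used lies inside the annotated body, so this zone is not intergenic throughout. With each gene body divided into equal stretches of 20% of its length, the numbers of summits from the start onward were 29, 43, 35, 60 and 45. The stretch nearest the start was the sparsest at 46.5 per Mb (31.1 to 66.8), and that from 60 to 80% was the densest at 96.2 per Mb (73.4 to 124). Summits in the densest stretch bunched in some genes, such as Vmn2r35 and Vmn2r60. The 4 members with most peaks held 50 of all 218 summits. Body summits shared by Vmn2r1 and Vmn2r2 were counted for each gene here. At the far end, 1 summit fell in the first kb past the gene (8.62 per Mb, 0.218 to 48.0), and 114 per Mb (85.6 to 149) were found from 1 to 5 kb past it.

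**Figure D3:**
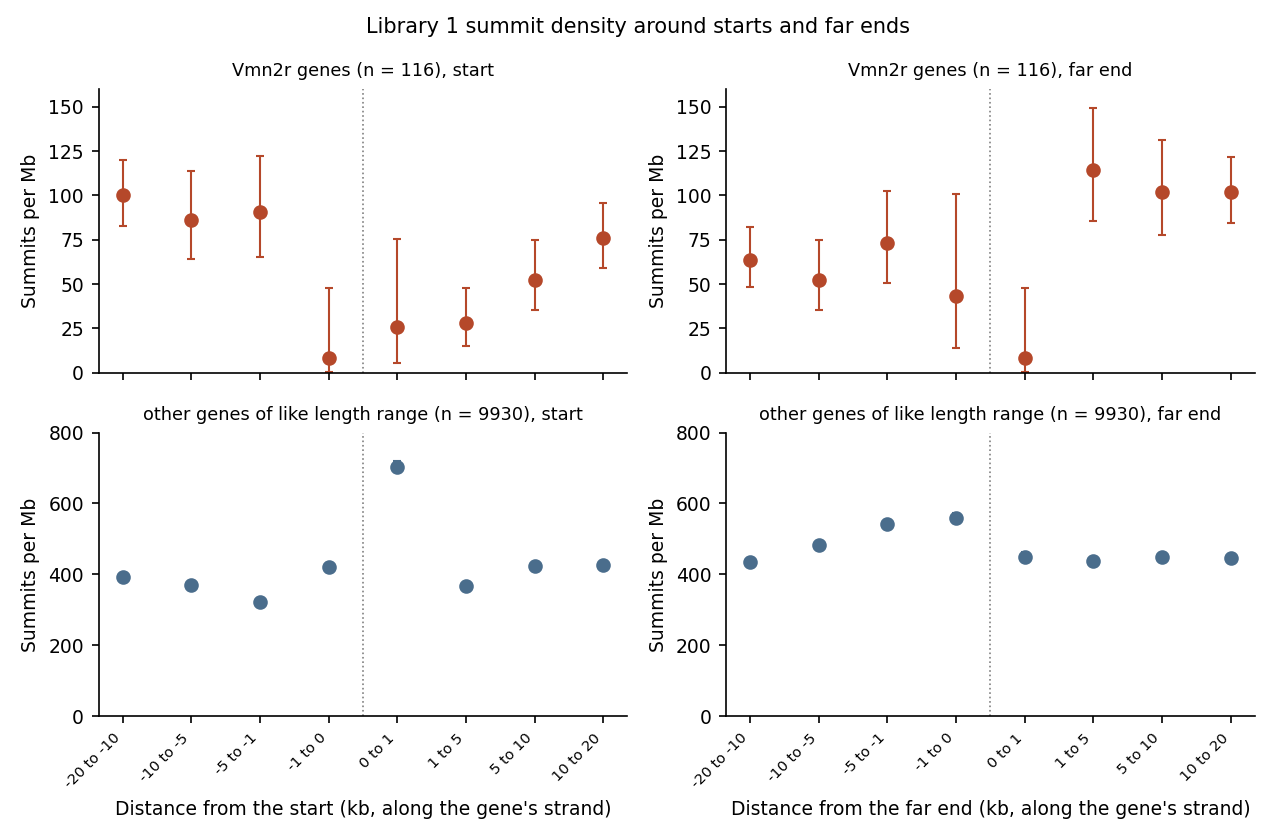
Library 1 summits per Mb (y axis) in zones along the gene's strand from the start (left) and the far end (right), for 116 receptor genes (top) and 9930 other genes of the same length range (bottom). The x axis gives the zones in kb, which differ in width, negative values lie before the point and bars are exact Poisson 95% intervals. Receptor genes dip to 8.62 and 25.9 per Mb beside the start, where the other genes reach 704 per Mb. Beside the far end they are also low, at 43.1 per Mb inside the gene and 8.62 past it. The y scales of the rows differ.

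All 3 summits within 1 kb after a start belonged to 1 cluster, Vmn2r53 to Vmn2r56 at chromosome 7, 12581470 to 12733320. They lay 179 bp after the start of Vmn2r53, 211 bp after that of Vmn2r54 and 197 bp after that of Vmn2r56. The peaks spanned bases 72 to 214, 90 to 321 and 85 to 291 after the start. Folds were 2.98, 3.66 and 4.58, with pileups of 17, 18 and 16 reads. Their −log10 q values were 3.38, 4.77 and 5.77, so only the peak of Vmn2r56 reached the stricter threshold of 5. Backgrounds were 5.04 and 4.20 extended reads at Vmn2r53 and Vmn2r54, and the genome-wide 2.71 at Vmn2r56. Among summits inside a receptor gene, the next nearest to a start lay 1065 bp after it, in Vmn2r91, and the median over the 74 genes with a summit inside was 11483 bp. Vmn2r55, in the same cluster, had its first summit 11526 bp after the start. The 250 bases before each of these starts are shown because they lie beside the only summits within 1 kb after a receptor gene start. Capitals mark bases that differ from Vmn2r53 or are inserted relative to it (RefSeq, GRCm38.p6, 5′ to 3′ on the minus strand).
Vmn2r53, chr7:12606545-12606794: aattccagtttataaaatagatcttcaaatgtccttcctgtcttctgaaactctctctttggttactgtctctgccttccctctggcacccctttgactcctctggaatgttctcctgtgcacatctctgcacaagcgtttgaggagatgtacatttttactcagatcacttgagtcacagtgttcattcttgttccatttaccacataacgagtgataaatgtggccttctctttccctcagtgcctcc
Vmn2r54, chr7:12636135-12636384: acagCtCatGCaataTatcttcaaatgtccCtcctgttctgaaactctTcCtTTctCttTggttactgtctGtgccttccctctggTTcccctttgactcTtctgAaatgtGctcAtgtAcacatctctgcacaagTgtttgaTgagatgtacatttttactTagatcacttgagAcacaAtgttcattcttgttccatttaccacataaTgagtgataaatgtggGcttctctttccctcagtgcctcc
Vmn2r55, chr7:12684992-12685241: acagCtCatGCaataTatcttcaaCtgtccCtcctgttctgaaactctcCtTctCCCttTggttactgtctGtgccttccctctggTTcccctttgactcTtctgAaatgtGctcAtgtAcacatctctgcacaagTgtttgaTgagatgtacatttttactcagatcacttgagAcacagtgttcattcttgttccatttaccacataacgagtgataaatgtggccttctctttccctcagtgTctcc
Vmn2r56, chr7:12733106-12733355: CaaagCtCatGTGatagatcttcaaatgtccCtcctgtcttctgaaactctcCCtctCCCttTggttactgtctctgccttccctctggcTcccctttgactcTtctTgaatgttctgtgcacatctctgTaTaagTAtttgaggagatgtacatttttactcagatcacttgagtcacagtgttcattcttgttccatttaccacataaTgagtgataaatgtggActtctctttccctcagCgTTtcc

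The sequences before the starts of Vmn2r54, Vmn2r55 and Vmn2r56 were 86.8%, 87.6% and 87.2% identical to that of Vmn2r53. In this stretch Vmn2r55, which had no summit within 1 kb after its start, was about as similar to Vmn2r53 as Vmn2r54 and Vmn2r56 were. Over the promoter window, Vmn2r55 was closest to Vmn2r54 (96.7%). The peaks lie after the starts, outside the stretch compared, and the sequence under them was not compared. All 4 genes of the cluster had a peak. Together these genes held 20 summits, or 158 per Mb (96.4 to 244), the highest receptor gene density of the 11 clusters. The interval overlaps that of the receptor genes of Vmn2r84 to Vmn2r87. Counted over the whole span, with intergenic sequence, Vmn2r84 to Vmn2r87 was the densest cluster. Vmn2r56 had 9 summits, Vmn2r53 had 6, Vmn2r54 had 3 and Vmn2r55 had 2. Vmn2r54 held the highest fold, 6.19, and Vmn2r53 the most summits per length (222 per Mb, 81.3 to 482). Vmn2r55 and Vmn2r56 are given for comparison and were added after their values were seen.

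**Figure D4:**
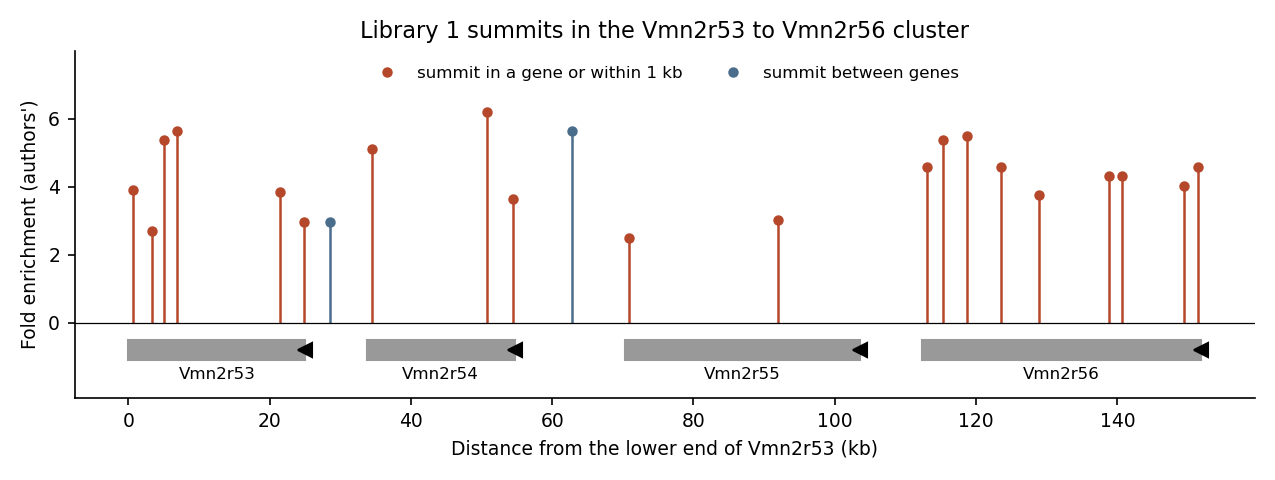
Library 1 summits in the Vmn2r53 to Vmn2r56 cluster, with distance from the lower end of Vmn2r53 in kb on the x axis and the authors' fold enrichment on the y axis. Grey bars are gene bodies and arrowheads mark the end that holds the start; a summit stands at the arrowhead of Vmn2r53, Vmn2r54 and Vmn2r56 and none stands at that of Vmn2r55.

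Receptor genes are close copies of each other, which bears on how reads are placed. Over 6670 pairs of promoter windows, the window of a member was a median of 91.7% identical to that of its nearest other member (range 46.3 to 100%). For 8 of the 116 members another member had the same 300 bases, and for 37 identity was at least 95%. The members with a nearest window at least 95% identical had a peak in 73.0% of cases (55.9 to 86.2) and 67.6 summits per Mb (52.3 to 86.0). Members at 80 to 95% had 58.6% (44.9 to 71.4) and 62.5 per Mb (50.8 to 76.1), and those under 80% had 66.7% (43.0 to 85.4) and 61.4 per Mb (44.8 to 82.1). The intervals of the 3 classes overlap. Identity of the gene bodies was not measured, and how the aligner treated reads that fit several copies is not given in the sources used here, so peaks within near-identical copies are uncertain as to the copy. Of the identical pairs, Vmn2r31 and Vmn2r33 had no peak, and both genes of the other 3 pairs had 1 each. In Vmn2r62 the summit lay 18.2 kb after the start and in Vmn2r126 it lay 18.3 kb after it, each 62.5% of the way along the body. The sequence before these starts is shown because both genes share every base of this stretch (RefSeq, GRCm38.p6, 250 bases before the start).
Vmn2r62, chr7:42793497-42793746, minus strand, and Vmn2r126, chr7:43018548-43018797, plus strand: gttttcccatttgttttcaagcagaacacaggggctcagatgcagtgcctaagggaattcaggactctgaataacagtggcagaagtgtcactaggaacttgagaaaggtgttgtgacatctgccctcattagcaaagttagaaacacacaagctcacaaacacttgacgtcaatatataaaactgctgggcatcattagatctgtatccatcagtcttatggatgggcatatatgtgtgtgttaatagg

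Sequence beside the clusters varied more than the clusters did. In 6 of 11 clusters, both stretches of 500 kb outside the outermost receptor genes held more summits per Mb than the cluster's span. The values of the spans ran from 66.7 to 197 per Mb, and those of the outer stretches from 36 to 808 per Mb. The highest outer value lay past Vmn2r83 on chromosome 10, where the span itself held 114 per Mb.

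Among genes that act with the receptors, the share with a peak differed by list. Signalling genes of basal vomeronasal neurons had a peak in 15 of 16 cases (93.8%, 69.8 to 99.8), close to the 90.4% of all genes, with 222 summits per Mb (206 to 239). The median length of these signalling genes was 50.9 kb. Gnao1 (159 kb), which encodes the G protein subunit of these neurons, had 103 summits and a best fold of 8.35. Trpc2 (13.7 kb), their transduction channel, had 19 and 5.66. Calr, which encodes a chaperone, had none. Ano2, a chloride channel gene, had the only library 2 peak among the genes listed. All 11 transcription factor genes listed for vomeronasal neurons, not for basal ones alone, had a library 1 peak (100%, 71.5 to 100). The share over all genes was 90.4%. These factor genes held 260 summits per Mb (223 to 302). Both this list and the signalling list lay below the 322 per Mb of other autosomal protein-coding genes. Among the factor genes were Tfap2e (20.3 kb), needed for basal neurons, with 19 summits, and Bcl11b (93.7 kb) with 74. H2-Mv genes, which encode MHC molecules that basal neurons make with their receptors, had a peak in 6 of 9 cases (66.7%, 29.9 to 92.5) and 342 summits per Mb (196 to 556).

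Ligand genes had few peaks. Of 15 Esp genes, which encode secreted tear and saliva peptides, 4 had a peak (26.7%, 7.79 to 55.1), with 47.5 summits per Mb (15.4 to 111). Of 22 Mup genes, which encode urinary proteins, 2 had one (9.09%, 1.12 to 29.2), namely Mup5 and Mup20, the longest of them at 26.7 and 42.8 kb. Of 6 vomeronasal formyl peptide receptor genes listed, 5 were found, and none had a peak (0%, 0 to 52.2). Their median length is 1.02 kb. These shares are lower than those of all genes, but the genes are short. Per length, Vmn2r genes (63.3 per Mb, 55.2 to 72.3) lay close to type 1 vomeronasal receptor genes (52.9, 38.3 to 71.2), whose intervals overlap. They lay below olfactory receptor genes (122, 112 to 133). The sequence compared is unlike, because much of it is 1 kb flanks in the shorter families and mostly gene body in Vmn2r genes. Within 1 kb on either side of the start, Vmn2r genes held 17.2 per Mb (4.70 to 44.1). The shares with a peak were 65.6% of 122 Vmn2r genes, 16.6% of 229 Vmn1r genes and 28.8% of 1103 Olfr genes, whose median lengths were 24.6, 0.924 and 0.951 kb.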

How the data were processed

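ChIP-seq peaks were analysed for 2 libraries of 1 group. Tools listed in the submitters' processing notes, without roles or settings, are MACS2 2.1.0, Bowtie 1.1.2, Trimmomatic 0.33 and bcl2fastq 2.17. The notes list mm10 and hg38 as builds, and positions were read as mm10. Each deposited narrowPeak list gives, per peak, a score, which equals the whole-number part of 10 times −log10 q, and a summit offset. Each also gives the authors' fold enrichment, a ratio, and their caller's p-value and q-value, both as −log10. These values were used only to describe or filter peaks within a list. Total reads are not given in the files. Summit pileups were solved from the authors' fold and −log10 p-value (tolerance 0.002) and were whole for every peak used.

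Gene positions and promoter windows came from RefSeq tables of GRCm38.p6, which hold no exons. No genome sequence was used here, so assembly gaps, repeats and mappability were not taken into account. Intergenic sequence was the span from the first to the last member of a cluster outside all annotated genes and 1 kb around them. Shares have Clopper-Pearson intervals, densities exact Poisson intervals and ratios exact conditional binomial intervals. Promoter identity was 1 minus the edit distance over 300 bases (edlib 1.3.9.post1, Python 3.11.15, scipy 1.17.1). Counting, intervals and pileups were tested on simulated data.

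Members named with values were, per cluster and outside clusters, those with most summits per kb and with the highest fold, family C, and members with 10 or more summits; exceptions are stated. The members and lists were chosen with earlier results of these data known. Alternatives changed the peak threshold, summit or overlap, the window, the cluster gap, the intergenic definition and the clusters kept.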

Additional observations from a re-analysis of the deposited data

How the results depend on the processing

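The ratio of receptor genes to cluster intergenic sequence stayed below 1 in every alternative run, from 0.593 with clusters joined over gaps of up to 2 Mb to 0.773 with the 10% of peaks of highest fold. In the last of these its interval (0.515 to 1.14) includes 1. Stricter peak sets lowered the densities themselves. With −log10 q of at least 5 they were 30.6 per Mb in receptor genes and 41.3 per Mb in intergenic sequence, and with the 10% of highest fold 10.9 and 14.1 per Mb. The highest-fold set left a peak in 32 receptor genes. Clusters joined over 2 Mb raised the intergenic density to 104 per Mb. A window of 5 kb gave a peak in 99 receptor genes. Counting peaks of either library, 0 to 80 receptor genes had one when library 1 or library 2 was left out, so library 1 supplies the whole count. Of the members named, counts of summits moved by over 1.5 times for 16 of 27 at −log10 q of at least 5, for 22 with the 10% of highest fold and for 2 with the 5 kb window. No paired analysis was possible because there is 1 group. Pileups of 9 to 28 reads behind each peak limit the precision of every fold.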
